A study of Homo sapiens with 6 samples.

Results

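D-type cyclins, the kinases they activate and the inhibitors that hold these kinases back were examined in the chromatin accessibility data of the established multiple myeloma line MM.1S. The 9 genes were the D cyclins CCND1, CCND2 and CCND3, the kinases CDK4 and CDK6, the inhibitors CDKN1B, CDKN2A and CDKN2C, and RB1, the substrate of the kinases, out of 20033 protein-coding genes in the annotation. They were chosen by name, as members of the pathway, with earlier results of these data known. The authors' paper already shows CDK6 as an example of a gene with decreased accessibility at multiple regions. Accessibility was measured by Omni-ATAC, in which a transposase cuts open chromatin and fragments pile up at accessible sites. Of 6 libraries of sorted live cells, 3 were from cells given 120 nM CB-6644 for 72 h and 3 from cells given the vehicle DMSO. CB-6644 blocks the ATPases RUVBL1 and RUVBL2, which several chromatin remodeling complexes share. All 6 libraries came from the 1 cell line, and the labels do not say whether replicates were separate cultures, so the tests below measure only the spread between these libraries.

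A peak is a stretch where the authors' caller found more fragments than its local background. Peaks of the 6 lists that overlapped by at least 1 bp were merged into 89196 regions, and a region was given to a gene when it overlapped the gene body or the 50 kb on either side of it on hg38. The 9 genes held 106 regions, of which 49 had a peak in all 6 libraries. Among all regions, 47.2% had a peak in all 6. A promoter region lay within 1000 bp of any transcript start of the gene. A pile-up is the number of fragment tags stacked on a peak's summit, and a percentile is the rank of the peak among all peaks of its own list by its -log10 p. The fold is the summit over its local background in the same library.

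In quiescent cells RB1 binds E2F transcription factors and keeps S-phase genes silent. D cyclins, which are made in response to growth signals, pair with CDK4 or CDK6 and phosphorylate RB1, which releases E2F. CDKN2A encodes p16INK4A and, from another first exon, p14ARF, and CDKN2C encodes p18INK4C. Both INK4 proteins bind CDK4 and CDK6 themselves, whereas p27, the product of CDKN1B, acts on cyclin-CDK complexes. Raised expression of a D cyclin is a common feature of myeloma.

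Depth differed between the groups. The lists give no read totals. Background tags per kb, recovered from the peaks and used in place of depth, ran from 3.20 to 7.05 with CB-6644 and from 6.40 to 9.08 with DMSO. A region without a peak in a library was not detected there, and whether it was closed, absent from the DNA or below the depth of the library cannot be told apart. CB-6644 replicate 2 and DMSO replicate 1 had shorter fragments than the other 4 libraries, with shortest peaks of 65 and 91 bp against 131 to 152 bp. As a check of the label, the 6 plasma cell genes PRDM1, XBP1, IRF4, SDC1, TNFRSF17 and CD38 were each called at a promoter in every library. So were CD14, EPCAM, PAX5 and COL1A1, markers of other cells, and only CD3E of those 5 was not, so a promoter peak did not distinguish cell types in these lists.

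The sequences under the peaks found in all 3 DMSO libraries and in no CB-6644 library are given first. There were 5 of these, 4 at CDK6 and 1 at CDKN1B. The 41 bases around the highest summit are shown on the plus strand of hg38 for the 4 regions outside UTRs.
CDK6 intron, chr7:92634289-92634329: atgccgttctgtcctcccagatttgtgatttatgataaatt
CDK6 intron, chr7:92793832-92793872: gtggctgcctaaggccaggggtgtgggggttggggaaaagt
CDK6 upstream, chr7:92880335-92880375: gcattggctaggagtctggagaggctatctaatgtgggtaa
CDKN1B downstream, chr12:12723993-12724033: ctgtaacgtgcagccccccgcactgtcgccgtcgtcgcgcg
The CDK6 sequences held 36.6%, 63.4% and 48.8% G and C and the CDKN1B sequence held 73.2%. The first of these CDK6 regions also had a match to TGATGNAA, a composite site of the ATF4-CEBP heterodimer, within 100 bp of its summit. Of the other DMSO-only CDK6 regions, that at 92793778 had a match to the IRF motif and that at 92613326 to an E-box and to AP-1, while the fourth and the CDKN1B region had no match to the 7 motifs searched. Another ATF4-CEBP match stood in a CDK6 region upstream of the gene, at 92854878 to 92855178, in which the CB-6644 peaks were few and low (below). Both are printed with the match in capitals, the first being on the minus strand.
CDK6 intron, chr7:92634316-92634347: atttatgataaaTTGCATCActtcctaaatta
CDK6 upstream, chr7:92854957-92854988: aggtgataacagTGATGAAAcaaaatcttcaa

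By count, CDK6 was the gene of the 9 at which the groups differed most in accessible regions. This ranking was not scaled to the number of regions of each gene. Of the set, CDK6 (ENSG00000105810.10, on the minus strand of chromosome 7 from 92604921 to 92836573) had the most regions, 30, over a window of 331.7 kb. CB-6644 replicates 1, 2 and 3 had a peak in 18, 13 and 17 of them, and DMSO replicates 1, 2 and 3 in 25, 24 and 25. Every DMSO library thus had peaks in more CDK6 regions than any CB-6644 library, with means of 24.7 ± 0.577 and 16.0 ± 2.65 (SD, n = 3 each). The exact two-sided permutation test gave p = 0.1, the smallest that 3 against 3 libraries allow. It was 1 of 9 such tests, and it did not pass 0.05. In the 4 longer-fragment libraries the difference was -7.00 regions and between the 2 shorter-fragment libraries -12.0. Of the 19455 genes with at least 1 region, 12.4% had fewer regions in every CB-6644 library than in any DMSO library and 0.761% had more. These genes were of any size, and the share among genes with as many regions as CDK6 was not taken. Of all regions in the series, CB-6644 replicates 1, 2 and 3 had a peak in 64.5%, 67.7% and 64.2%. DMSO replicates 1, 2 and 3 had one in 79.7%, 77.7% and 72.4%.

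**Figure D1:**
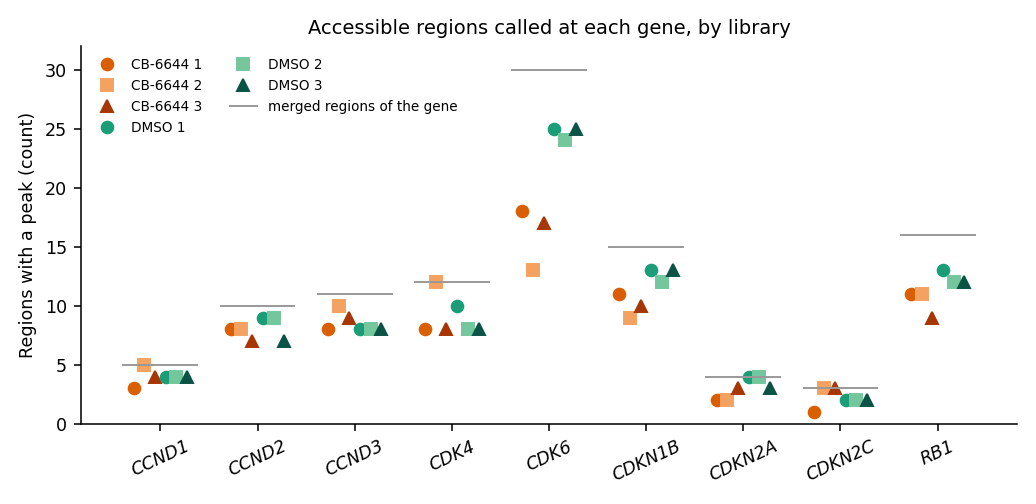
Number of regions with a peak (vertical axis) at each of the 9 genes (horizontal axis) in each library, CB-6644 in orange and DMSO in green, with the grey line at the number of merged regions of the gene. The groups are apart at CDK6 (13 to 18 against 24 or 25), at CDKN1B (9 to 11 against 12 or 13) and at RB1 (9 to 11 against 12 or 13), and overlap at the other 6 genes.

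CDKN1B and RB1 also had fewer regions in every CB-6644 library. CDKN1B had peaks in 11, 9 and 10 of its 15 regions with CB-6644 and in 13, 12 and 13 with DMSO. RB1 had peaks in 11, 11 and 9 of 16 with CB-6644 and in 13, 12 and 12 with DMSO. Each of these tests also gave p = 0.1 by the exact two-sided permutation test. At the other 6 genes the libraries overlapped. CDKN2A had peaks in 2, 2 and 3 of only 4 regions with CB-6644 and in 4, 4 and 3 with DMSO (means 2.33 and 3.67). CCND3 had peaks in 8, 10 and 9 of 11 regions with CB-6644 and in 8 in each DMSO library, and CDK4 in 8, 12 and 8 of 12 against 10, 8 and 8. CB-6644 replicate 2 was the highest library at both.

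Over the 9 genes together, the CB-6644 lists held 73, 94 and 73 peaks and the DMSO lists 100, 85 and 84. The means were 80.0 ± 12.1 and 89.7 ± 8.96 (SD, n = 3 each; exact two-sided permutation test, p = 0.3). As a percent of the whole list these were 0.123, 0.131 and 0.125 with CB-6644 and 0.127, 0.120 and 0.128 with DMSO, which overlapped (exact two-sided permutation test, p = 0.8).

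The 5 DMSO-only regions were 4.72% of the 106, beside 4.50% of all regions. No region of the 9 genes was CB-6644-only, a pattern found in 0.586% of all regions. At this setting the 9 genes as a set thus stood near the background, and 4 of the 5 regions lay at CDK6. Of all protein-coding genes 0.210% had at least 4 DMSO-only regions, but among the 102 genes with at least 30 regions 15.7% did. CCND1, CCND2, CCND3, CDK4, CDKN2A, CDKN2C and RB1 had none. Regions with a peak in all 3 DMSO libraries and in at most 1 CB-6644 library numbered 6 at CDK6 and 2 at CDKN1B, with 0 at the other genes, beside 8.05% of all regions. Not all of these were weaker in the CB-6644 library that had a peak, as 2 regions named after their values were seen show. The CDK6 region at 92763675 had a pile-up of 17 in CB-6644 replicate 3 against 11, 10 and 12 with DMSO. The CDKN1B region at 12635775 had 22 in CB-6644 replicate 1 against 15, 14 and 26. The converse pattern was found at 0 regions of the 9 genes, beside 1.47% of all. Since the DMSO libraries were deeper on average, the DMSO-only count was also taken at equal terms. With each list reduced to the same number of top peaks it was 4 of 93 regions, beside 2.46% of all. All were at CDK6, but only 3 of them were DMSO-only before, and the other was at 92815418. With the 20000 top peaks it was 4 of 38, beside 2.79% of all, again all at CDK6 (92720621, 92737755, 92779013 and 92854878), and none of these was DMSO-only before. In the full lists those at 92720621 and 92737755 had peaks in all 3 CB-6644 libraries. Those at 92779013 and 92854878 had peaks in 2 of them. Here DMSO-only thus meant that CB-6644 peaks ranked below the cut or were not listed. With the 4 longer-fragment libraries thinned to the same background, the DMSO-only count was 7 of 69, beside 6.44% of all. Of these, 2 were DMSO-only before, both at CDK6.

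The CDK6 regions of this kind were spread along the gene. The region at 92613326 to 92613630, over an exon and UTR 223.09 kb downstream of the main transcript start, had pile-ups of 25, 47 and 54 in DMSO replicates 1, 2 and 3. The intronic region at 92634180 to 92634443 had 21, 62 and 49, and that at 92793778 to 92794103 had 19, 32 and 23. The region at 92880145 to 92880460, upstream of the gene, had 12, 16 and 13 (at -43.73 kb on the scale of the CDK6 map). The lowest pile-up of any listed peak was 6 to 8 in these DMSO libraries and 4 to 8 in the CB-6644 libraries, so the upstream region stood only slightly above what the caller could list. The intronic one at 92634180 had higher pile-ups, but on a local background of 1.30, 4.03 and 4.52 tags against 0.583, 1.19 and 1.23 upstream. Beside it, and named after their values were seen, the region at 92633479 had peaks in 3 CB-6644 and 2 DMSO libraries. That at 92634940 had peaks in 2 and 3. The percentiles of the 4 DMSO-only CDK6 regions ran from 4.02 to 49.8.

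Other CDK6 regions with high DMSO peaks were still held in part by the CB-6644 lists. The next 3 regions, and those at 92737755 and 92718077, fall outside the rule for naming and were chosen after their values were seen. The intronic region at 92815418 to 92815740, 20.99 kb into the gene, had pile-ups of 74, 134 and 111 with DMSO, in the upper part of each list (percentiles 72.0 to 77.5). With CB-6644 it had a peak in replicate 2, with a pile-up of 7, and none in replicates 1 and 3. The region at 92854878 to 92855178, upstream at -18.45 kb and near a start of the antisense transcript CDK6-AS1, had 82, 149 and 133 with DMSO and 20 and 6 in CB-6644 replicates 1 and 2, with no peak in replicate 3. The region at 92779013 to 92779322 had 78, 143 and 153 with DMSO, 37 and 39 in CB-6644 replicates 1 and 3, and no peak in replicate 2.

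Since the libraries differed in depth, pile-ups were also divided by the genome-wide background of the library. The ratio at 92854878 was 25.6 and 28.8 in the CB-6644 libraries that had a peak and 108 to 141 with DMSO. At 92815418 it was 33.7 in CB-6644 replicate 2 and 90.3 to 127 with DMSO, and at 92779013 it was 39.8 and 47.3 against 120 to 134. Among regions with a peak in at least 2 libraries of each group, limma gave a difference in normalized log2 fold of -1.84 at 92854878 (SE 0.34, adjusted p = 0.074) and of -0.37 at 92779013 (SE 0.17, adjusted p = 0.39), so neither passed. The region at 92815418 had too few CB-6644 peaks for that fit.

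**Figure D2:**
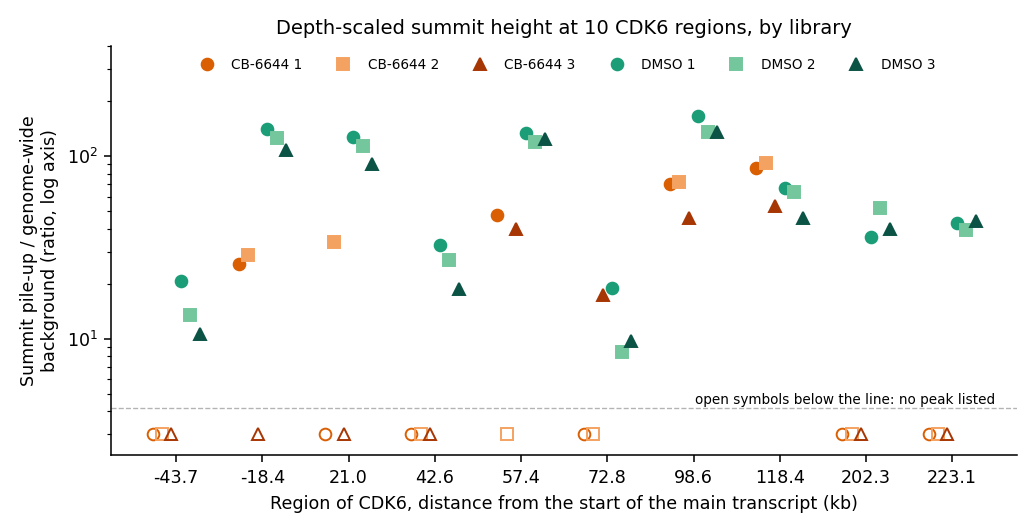
Summit pile-up divided by the genome-wide background of the library (vertical log axis, ratio) at 10 CDK6 regions, ordered by their distance in kb from the start of the main transcript (horizontal axis, negative upstream). The regions were picked by their values. They had peaks in all 3 DMSO and at most 1 CB-6644 library, or in 2 with a high DMSO pile-up, or in all 6 with an unadjusted limma p under 0.05. CDK6 regions without lower CB-6644 values, such as that at 92731728, are among those not shown. Filled symbols are listed peaks, orange for CB-6644 and green for DMSO, and open symbols mark libraries with no peak. At -18.45 kb DMSO values are 108 to 141 and CB-6644 values 25.6 and 28.8, while at 118.39 kb the groups overlap.

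Regions with a peak in all 6 libraries were tested in the main fit. The test was limma on the log2 fold, quantile normalized between libraries and fitted on all 42089 regions with a peak in all 6, with Benjamini-Hochberg adjustment over all of them at 0.05. The region at 92737755 to 92738263 had pile-ups of 55, 15 and 45 with CB-6644 and 96, 161 and 166 with DMSO, and the groups did not overlap. Its normalized log2 fold was 4.53, 3.87 and 4.46 with CB-6644 and 4.80, 4.95 and 5.07 with DMSO, a difference of -0.65 (SE 0.19, limma adjusted p = 0.17). It passed at 0.025 when the fragment-length set was a term of the limma fit. Another intronic region had the opposite sign. It lay at 92718077 to 92718285 and had a normalized log2 fold of 3.57, 3.59 and 3.19 with CB-6644 and 2.82, 2.89 and 2.53 with DMSO, a difference of 0.70 (SE 0.16, limma adjusted p = 0.1), which passed at 0.035 with the fragment-length term. Its raw pile-ups, 67, 19 and 52 against 39, 76 and 56, overlapped, and the limma fit on pile-ups gave 0.26 (SE 0.23, adjusted p = 0.56).

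Among CDK6 regions with a peak in all 6 libraries, the 3 with the highest minimum percentile were at 92589697 to 92590571, which is also a promoter of the neighbor FAM133B, at the promoter region 92832843 to 92834272, and in an intron at 92809522 to 92810189. The intronic one had pile-ups of 86, 45 and 131 with CB-6644 and 119, 186 and 175 with DMSO, and its normalized fold differed by 0.09 (SE 0.14, limma adjusted p = 0.8). The map of CDK6 peaks places these beside the weaker regions.

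**Figure D3:**
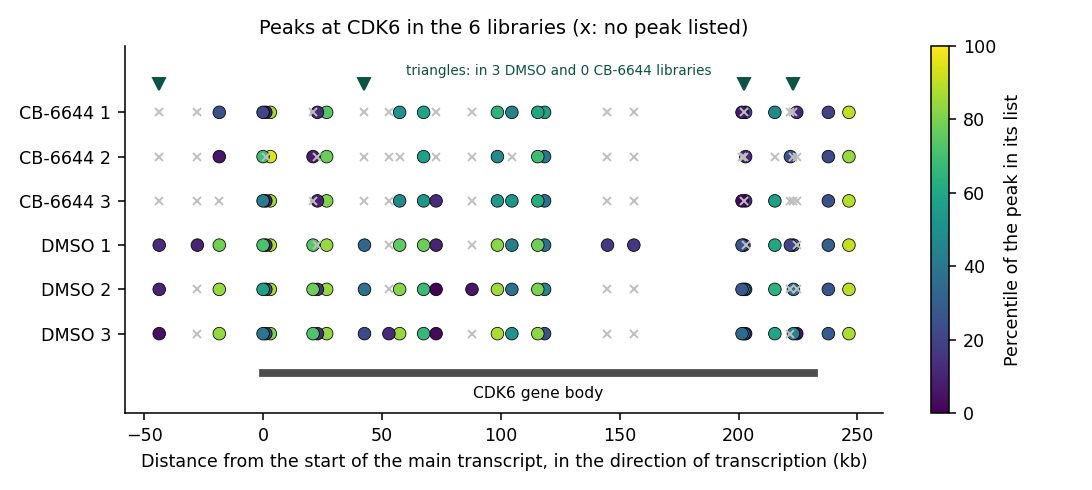
Peaks at the 30 CDK6 regions in each of the 6 libraries (rows) by distance in kb from the start of the main transcript (horizontal axis), with the percentile of the peak in its own list as color and a grey cross where no peak was listed. Triangles mark the 4 regions found in all 3 DMSO and no CB-6644 libraries, and the grey bar is the gene body. Peaks near 0 kb and at 246.44 kb are present in every row.

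Motif matches were counted within 100 bp of the highest summit on both strands. AP-1 (TGANTCA) was matched in 8 of 30 CDK6 regions, beside 10.5% of all regions, and ATF4-CEBP in 3 of 30, beside 3.98%. The third ATF4-CEBP match lay over a UTR. IRF (GAAANNGAA) was matched in 5 of 30 beside 13.7%, an E-box (CAGGTG) in 8 of 30 beside 27.7%, and MAF (TGCTGAC) in 2 of 30 beside 5.31%. The CRE (TGACGTCA) and E2F (TTTGGCGC or TTTCCCGC) letters were in none of the 30 and in 0.664% and 0.621% of all regions. Over the 106 regions AP-1 was matched in 10 and ATF4-CEBP in 4. Among all DMSO-only regions of the series, ATF4-CEBP was matched in 12.7%, IRF in 22.8%, AP-1 in 11.9% and an E-box in 22.4%. These are descriptions of letters, not of binding.

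The genes with the pattern nearest to CDK6 were sought among 3023 genes with a mean of at least 0.5 times its number of peaks, by the distance between their 6 peak numbers, each divided by the gene's own mean. They were ZNF804B (distance 0.0643), PAK5 (0.0755), NDUFAF6 (0.1237), STON2 (0.1265) and SEMA3A (0.1271). CDK6 had 19, 16 and 18 peaks with CB-6644 and 28, 25 and 26 with DMSO, and ZNF804B had 11, 9 and 11 against 16, 15 and 15.

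Of the 9 genes, 7 had a promoter peak in all 6 libraries. In all there were 22 promoter regions, of which 16 were called in all 6, and none of these 16 passed limma, either in the main fit or with the fragment-length term. Their median difference was 0.156 on the normalized log2 scale, 13 of 16 being higher with CB-6644, beside a median of 0.0218 and 53.7% higher over all regions tested. This direction rested on CB-6644 replicate 2. Without it 7 of 16 were higher and the median was -0.0316, and 9 of 16 were higher in the fit on pile-ups.

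The D cyclin promoters differed in height, and no difference between treatments passed the test. The main promoter region of CCND3 (ENSG00000112576.13, chromosome 6, 41941190 to 41942227) was among the most accessible sites of each list, at percentiles of 90.9 to 96.2, with folds of 22.8, 35.8 and 24.7 with CB-6644 and 35.4, 23.9 and 21.3 with DMSO. The values overlapped, and the difference was 0.10 (SE 0.13, limma adjusted p = 0.76). CCND3 has several starts, and its 2 other promoter regions, at 42048501 and 42050363, differed by 0.18 (SE 0.20) and -0.08 (SE 0.15), the latter being shared with TAF8 on the other side. The next most accessible CCND3 regions, at 41895088 and 41920707, overlapped promoters of USP49 and of BYSL and MED20, and differed by -0.04 (SE 0.14) and -0.09 (SE 0.11).

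CCND1 (ENSG00000110092.4) encodes cyclin D1, the D cyclin that the t(11;14) translocation activates in part of myelomas. Its promoter region with peaks in all 6 libraries (chromosome 11, 69642777 to 69643572, over an exon) had folds of 15.5, 27.7 and 20.6 with CB-6644 and 28.5, 21.8 and 16.1 with DMSO, a difference of 0.01 (SE 0.19, limma adjusted p = 0.98). A smaller region over the start itself, at 69641085 to 69641367, had no peak in CB-6644 replicate 1, pile-ups of 16 and 29 in CB-6644 replicates 2 and 3, and 35, 50 and 48 with DMSO. CCND1 had 5 regions in all, and its most accessible one at 69674902 lay over a promoter of LTO1 and differed by -0.07 (SE 0.12). A region at 69685946 differed by -0.01 (SE 0.12).

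CCND2 (ENSG00000118971.9) encodes cyclin D2, the D cyclin of myelomas with MAF translocations. Its start region (chromosome 12, 4273512 to 4273917) had folds of 6.42, 17.9 and 5.08 with CB-6644 and 11.3, 6.86 and 5.55 with DMSO. The 2 shorter-fragment libraries held the 2 highest folds, and the difference of 0.24 (SE 0.44, limma adjusted p = 0.83) had the largest error of the 16 promoter regions. A second promoter region at 4271724 to 4272669 differed by 0.15 (SE 0.15), and those at 4269314 and 4272750 had peaks in 5 and in 1 libraries. The highest region in the CCND2 window, at 4320675 to 4321626 in the top percentiles of each list (98.2 to 99.7), overlapped the promoter of the neighbor TIGAR and differed by 0.02 (SE 0.12). An intronic region at 4276825, at a promoter of CCND2-AS1, differed by 0.15 (SE 0.20).

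Outside its promoters CCND2 had 2 regions with lower CB-6644 values, both chosen after their values were seen. The region at 4312268 to 4312697, downstream of the gene, had pile-ups of 15 and 18 in CB-6644 replicates 1 and 3, none listed in replicate 2, and 32, 93 and 86 with DMSO. In the 4 longer-fragment libraries its difference was -1.26 (SE 0.10) and passed the limma test (adjusted p = 0.02), where 2.73% of the 47854 regions were called lower. Among regions with a peak in at least 2 libraries of each group it did not pass (-1.12, SE 0.26, limma adjusted p = 0.11). The region at 4245531, upstream, differed by -0.44 (SE 0.17, limma adjusted p = 0.28).

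By its lowest percentile, the promoter of CDK4 (ENSG00000135446.17) was the most accessible of the 9 genes. Its promoter region (chromosome 12, 57752014 to 57752765) had percentiles of 95.6 to 98.3 in all 6 lists and pile-ups of 300, 215 and 429 with CB-6644 and 387, 498 and 425 with DMSO. The difference in normalized fold was 0.16 (SE 0.18, limma adjusted p = 0.71). A second region in an intron, at 57754690 to 57755099, also within a promoter of MARCHF9, differed by 0.37 (SE 0.24, limma adjusted p = 0.53). The other 2 promoter regions of CDK4, at 57755826 and 57756885, had peaks in the 2 shorter-fragment libraries only, 1 of each treatment. The regions at 57744385 and 57771753, which overlapped promoters of the neighbors TSPAN31 and METTL1, differed by 0.20 (SE 0.22) and 0.12 (SE 0.11).

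The CDK6 promoter was covered by 3 regions. The one at 92832843 to 92834272, over an exon and UTR, had folds of 13.2, 30.4 and 12.6 with CB-6644 and 15.6, 11.9 and 9.48 with DMSO. CB-6644 replicate 2 was the highest, the others overlapped, and the difference was 0.54 (SE 0.28, limma adjusted p = 0.43). The region over the main start, at 92836469 to 92836753, differed by 0.13 (SE 0.40, limma adjusted p = 0.9). The region between them had peaks in every library but CB-6644 replicate 2. In raw pile-ups the main start had 58, 57 and 95 with CB-6644 and 120, 141 and 103 with DMSO, all CB-6644 values being lower, and the limma fit on pile-ups gave -0.15 (SE 0.25, adjusted p = 0.78).

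The promoter of CDKN1B (ENSG00000111276.12) was called in both groups. Its start region (chromosome 12, 12716809 to 12717655) had folds of 11.8, 23.9 and 13.4 with CB-6644 and 16.5, 11.3 and 9.97 with DMSO, a difference of 0.42 (SE 0.24, limma adjusted p = 0.49). Its 3 other promoter regions, at 12696140, 12714259 and 12715393, differed by 0.11, 0.31 and -0.04, and none passed. The CDKN1B region found with DMSO only, at 12723889 to 12724174, 6.66 kb downstream of the main start and within a promoter of the lncRNA gene ENSG00000256658, had pile-ups of 45, 83 and 63 on a high local background, so that its folds were 3.74, 3.31 and 2.77 and its percentiles 7.84 to 20.2. The neighboring region at 12724854, at a promoter of APOLD1, had a peak in all 6 libraries and differed by 0.10 (SE 0.24), and the intronic region at 12704674 by 0.00 (SE 0.11).

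RB1 (ENSG00000139687.16) was called at its start in both groups. The promoter region at 48303290 to 48304238 on chromosome 13 had folds of 16.0, 18.5 and 17.3 with CB-6644 and 17.3, 18.8 and 14.3 with DMSO, which overlapped (difference 0.17, SE 0.13, limma adjusted p = 0.59). A second promoter region at 48304454 differed by -0.16 (SE 0.23). The strongest RB1 region by its lowest percentile, at 48532278 inside the gene, overlapped a promoter of RCBTB2 and differed by 0.10 (SE 0.11). The next, in an intron at 48562347, differed by 0.11 (SE 0.14).

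**Figure D4:**
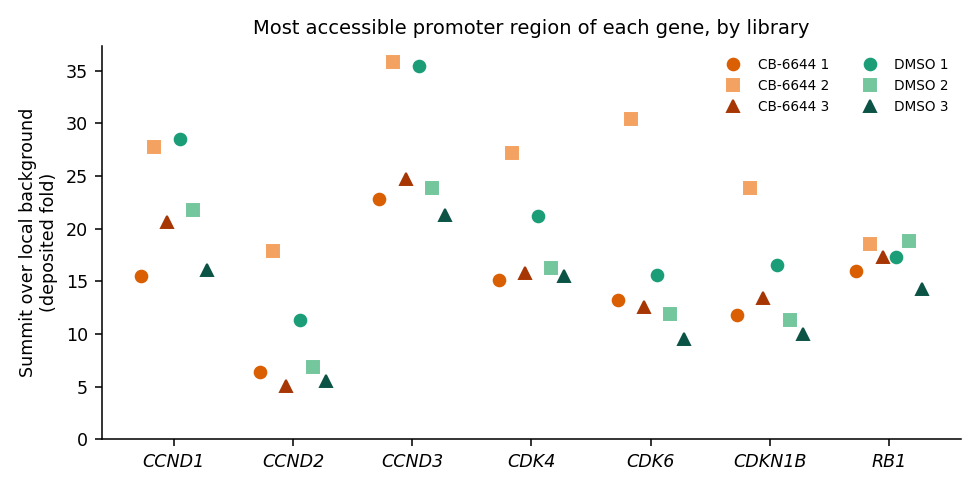
Deposited fold of the summit over its local background (vertical axis) for the promoter region with the highest mean pile-up of each gene, in each library. The CB-6644 libraries (orange) and DMSO libraries (green) overlap at all 7 genes, and CB-6644 replicate 2 (orange squares) is the highest library at CCND2, CCND3, CDK4, CDK6 and CDKN1B.

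CDKN2A (ENSG00000147889.18) and CDKN2C (ENSG00000123080.12), the INK4 genes, had no promoter peak in any of the 6 libraries, although CDKN2A has 13 annotated starts and CDKN2C has 3. In the CDKN2A window (chromosome 9, gene 21967752 to 21995301) there were 4 regions, the nearest being downstream at 21965075 to 21965358 with pile-ups of 20 and 21 in CB-6644 replicates 1 and 3 and 26, 46 and 32 with DMSO. Only the region at 22032927 to 22033348 had a peak in all 6 libraries, with pile-ups of 29, 10 and 28 against 37, 66 and 45, and it differed by -0.12 (SE 0.12, limma adjusted p = 0.69). In the CDKN2C window (chromosome 1, gene 50960745 to 50974634) there were 3 regions, all downstream. The nearest, at 50977020 to 50977200, had pile-ups of 13 and 18 in CB-6644 replicates 2 and 3 and no peak in any DMSO library. Peaks in at least 2 CB-6644 and no DMSO libraries were found in 1.78% of all regions. The region at 50977603 to 50978476 had pile-ups of 27, 29 and 31 with CB-6644 and 37, 50 and 32 with DMSO (difference 0.11, SE 0.26, limma adjusted p = 0.87). CDKN2B, the INK4 neighbor of CDKN2A, had no promoter peak either, while CDKN2D, CDKN1A and CDKN1C, which encode other CDK inhibitors, had one in all 6 libraries.

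The promoters differed widely in CpG. The 120 bases before a start are shown for CDK6 and CDKN1B, whose starts had peaks in all 6 libraries, and for an upstream start of CDKN2A, which had none. The main CDKN2A start, at 21974857, also had none, and the bases before it overlap a UTR and are not printed. They are RefSeq promoter sequences on GRCh38.p14, printed in the direction of transcription with CpG in capitals. The table held promoters for 7 of the 9 genes. CCND1 and CCND2 were not matched.
CDK6, chr7:92836574-92836693, minus strand: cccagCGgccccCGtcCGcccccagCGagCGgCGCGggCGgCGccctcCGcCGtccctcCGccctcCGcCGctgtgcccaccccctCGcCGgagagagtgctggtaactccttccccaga
CDKN1B, chr12:12717248-12717367, plus strand: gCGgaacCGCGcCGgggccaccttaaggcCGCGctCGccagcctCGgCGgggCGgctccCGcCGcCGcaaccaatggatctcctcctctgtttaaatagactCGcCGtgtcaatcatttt
CDKN2A, chr9:21995325-21995444, minus strand: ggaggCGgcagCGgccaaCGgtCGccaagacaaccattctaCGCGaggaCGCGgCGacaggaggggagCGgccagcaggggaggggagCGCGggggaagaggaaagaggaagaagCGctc
They held 16, 15 and 13 CpG. Other starts held more or fewer in the same 120 bases. The CDKN2C starts that follow 50960744, 50968705 and 50970244, which had no peak, held 4, 22 and 5. The CCND3 start in its main promoter region held 17 and another CCND3 start 2. An RB1 start inside the gene, after 48476449, held 0. None of the 7 motifs was matched in the 250 bases before the 3 printed starts. DNA methylation and copy number were not measured in these lists.

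Across the 49 regions with a peak in all 6 libraries, limma called 0 lower and 0 higher with CB-6644, beside 0.461% of all 42089 regions called lower and 0.513% called higher. At an unadjusted p under 0.05 there were 3 of 49, the CDK6 regions at 92718077 and 92737755 and the CCND2 region at 4245531, beside 14.7% of all. The groups did not overlap in 4 regions that were lower with CB-6644 (beside 10.7% of all) and in 1 that was higher (10.7%). With the fragment-length set as a term, 1 region of the 49 was lower (beside 4.01% of all) and 1 higher (3.40%), both at CDK6. The fit on summit pile-ups called 1 lower (5.42%) and 0 higher (5.04%), and in the 4 longer-fragment libraries 1 of 62 was lower and 0 higher (2.06%). Of 71 regions with peaks in at least 2 libraries of each group, 0 were lower (0.361%) and 0 higher (0.256%). The median difference of the 49 was 0.0873.

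**Figure D5:**
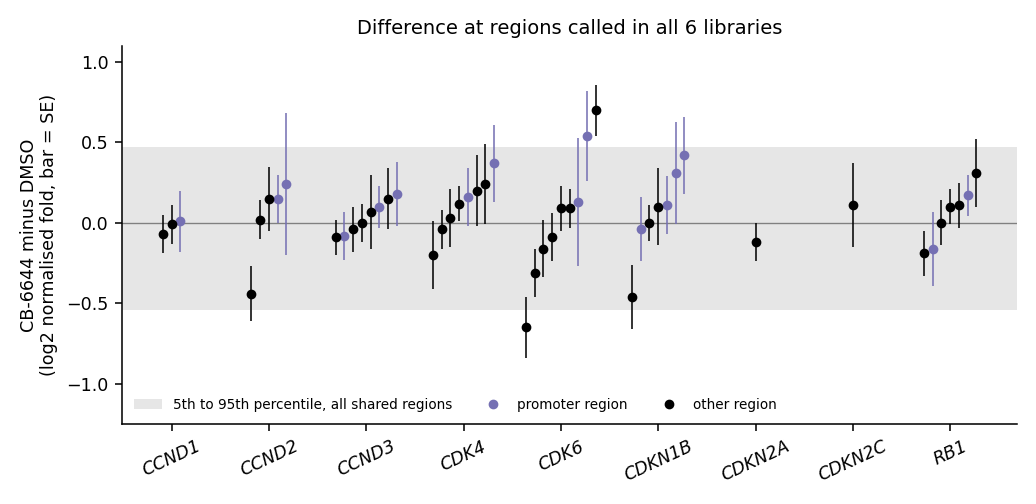
Difference in normalized log2 fold, CB-6644 minus DMSO (vertical axis, bars are the SE), for each of the 49 regions with a peak in all 6 libraries, grouped by gene, with promoter regions in purple. The grey band is the range from the 5th to the 95th percentile of all 42089 regions (-0.54 to 0.47), and CDK6 has a region on either side of it, at -0.65 and 0.70.

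Other genes of the same pathway were counted at their promoters. Of 26 genes (cyclins E and A, CDK2, the CDK-activating kinase, other inhibitors, RB1 relatives, E2F and DP factors and their regulators), 25 had a promoter peak in all 6 libraries, and CDKN2B had none. Of their 46 promoter regions 34 were called in all 6, and 0 passed limma in either direction, with 1 at an unadjusted p under 0.05 (beside 14.7% of all). Their median difference was 0.0605. With the fragment-length term 0 were lower (beside 4.01% of all) and 2 higher (beside 3.40%). The 2 were those of CCNE1, which encodes cyclin E1, the partner of CDK2 (0.50, limma adjusted p = 0.027), and E2F2 (0.52, limma adjusted p = 0.045). Neither passed in the main fit (limma adjusted p = 0.3 and 0.52) or in the fit on pile-ups (limma adjusted p = 0.17 and 0.62). CCNE2 had a second promoter region, at 94893522 to 94893745 on chromosome 8, found with DMSO only, with pile-ups of 25, 45 and 45. That pattern was found in 4.50% of all regions.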

How the data were processed

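The data were the peak lists of 6 Omni-ATAC libraries of MM.1S cells, grouped by the labels. The submitters' processing notes name hg38, Bowtie2 2.4.2 and MACS3 3.0, and the authors called peaks in each library on its own. The caller settings are not given in the sources used here. In the deposited lists the fold is the ratio of summit pile-up to local background, with 1 added to both. The -log10 p and -log10 q are those of the authors' caller, and the deposited score is an integer that was not used. The lists hold no read counts, so a count test such as the authors' edgeR test was not run.

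The 9 genes, the gene lists and the motifs were chosen with earlier results of these data known. Named regions were every promoter and group-only region, every region past the limma threshold and the 3 regions per gene with the highest lowest percentile. Regions nearest to a gene without a promoter peak, and those said in the text to be chosen after their values were seen, were added. Genes came from GENCODE release 44. Pile-up and background were solved from fold and -log10 p under a Poisson model, to within 0.1% in 100% of peaks. The shortest peak stood in for fragment length, and the lowest background divided by it for depth, in tags per kb. Both are inferences. Fits used limma 3.58.1 in R 4.3.3, and the rest Python 3.11.15 with numpy 2.4.6, pandas 2.3.3, scipy 1.17.1 and matplotlib 3.10.9. The fit was tested on simulated data. Single values were compared by exact permutation of libraries. Alternatives were stricter lists, equal numbers of top peaks, the 4 longer-fragment libraries as they were and thinned to equal background, other window and promoter distances, other scalings, a replicate block and leaving out each library. A fit on summit pile-ups was added after the data were seen.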

Additional observations from a re-analysis of the deposited data

How the results depend on the processing

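DMSO-only regions, 5 in the main count (4.72%), were 8 of 106 with 2 of 3 libraries in the calling group (7.55%, beside 9.05% of all), 3 of 61 with no flank (4.92%, beside 4.50%) and 3 of 106 with peaks covering at least 50% of the region (2.83%, beside 2.88%). They ranged from 5 to 7 when each library was left out (4.76% to 6.67%, beside 5.29% to 6.89% of all). With the 20000 top peaks there were 4 of 38 (10.5%, beside 2.79%), of which 0 were in the main count. CB-6644-only regions were 0 to 1 when each library was left out, beside 0.739% to 1.18% of all. They were 1 of 106 with 2 of 3 libraries (0.943%, beside 1.78%). In the 4 longer-fragment libraries thinned to equal background they were 1 of 69 (1.45%, beside 4.22%). There, DMSO-only regions were 7 of 69 (10.1%, beside 6.44%). Genes with a promoter peak in every library were 7 whichever library was left out, and 4 with the 20000 top peaks. The difference in peaks ranged from -16.7 to -4.50 over left-out libraries and was 0.333 with equal numbers of top peaks. The difference in percent of the list ranged from -0.00116 to 0.00312 over left-out libraries. It turned negative with the 20000 top peaks (-0.0283), in the 4 longer-fragment libraries (-0.0000502), when these were thinned (-0.00920) and with no flank (-0.00184). By limma, 1 of 49 shared regions was lower with the fragment-length term (beside 4.01% of all) and with summit pile-ups (beside 5.42%). With normal scores of -log10 p 1 of 49 was lower and 0 higher, beside 6.67% of all called in either direction. Each time the lower one was the CDK6 region at 92737755. In the 4 longer-fragment libraries 1 of 62 was lower, the CCND2 region at 4312268, beside 2.73% of all. None of these shares was above that of all regions. With the fragment-length term 1 was higher, and leaving out each library gave 0 to 0 in both directions. In 5 of those 6 fits 0 regions were called anywhere, and without CB-6644 replicate 2, 2.60% of all were, so these zeros say little of the 9 genes. The labels do not say whether equal replicate numbers were paired. Same-number correlations of deviations were -0.477, -0.332 and 0.326, and the highest of any pair, 0.572, was between the 2 shorter-fragment libraries. Numbers 1 and 2 each join a shorter- with a longer-fragment library, so these values cannot decide pairing. With a replicate block the difference in peaks stayed at -9.67 and limma called 0 of the 49 regions and 0 of all 42089. The main limits were depth, the lack of read counts, and 3 libraries per group, which allow no permutation p under 0.1.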
